A study of Arabidopsis thaliana with 12 samples.

Results

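The plastid genome of Arabidopsis was followed through 72 of its genes, out of 22599 genes and unpaired probe sets measured on the same arrays. A gene was included when the probe set carried a locus of the plastid genome in the pairing tables used, and each of the 72 was read by 1 probe set. They comprised 15 genes of photosystem II, 5 of photosystem I, 6 of the cytochrome b6f complex, 6 of the ATP synthase, 10 of the NDH complex, rbcL, 4 of the RNA polymerase, 11 of the small and 7 of the large ribosomal subunit, and 7 with other functions. The signals came from 12 Affymetrix ATH1 arrays, 3 for each of 4 treatments of shoot apical meristems (SAMs): Dex together with cycloheximide (Dex+Cyc), Dex alone, cycloheximide alone (Cyc) and mock solution. All groups, the mock one included, carried 35S::WUS-GR in the ap1-1;cal1-1 background and were taken from plants of 28 days. Treatment lasted 4 h, with Dex and Cyc each at 10 μM where given, and mock plants received neither. WUS-GR is the stem cell factor WUSCHEL fused to the hormone-binding part of a glucocorticoid receptor, so that Dex lets it enter the nucleus, and the 35S promoter expresses it throughout the plant. The ap1-1;cal1-1 double mutant forms masses of meristems in place of flowers. Each RNA came from SAMs of pooled plants, and no plants without the transgene were analysed here.

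Chloroplasts and their undifferentiated precursors keep a small genome of bacterial ancestry, most of whose genes encode subunits of the photosynthetic complexes or of the plastid's own machinery for transcription and translation. The remaining subunits are encoded in the nucleus, made on cytosolic ribosomes and imported. Many plastid genes lie in clusters that are transcribed together, by an RNA polymerase with plastid-encoded core subunits or by nuclear-encoded polymerases of the phage type. Cycloheximide stops cytosolic ribosomes, and plastid ribosomes, being of bacterial type, are not its target. In meristem cells plastids are small and have little internal membrane.

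The values were MAS5 signals on a scale that set the trimmed mean of each array to 500, and differences were computed on log2 of the signal. Labelling followed the manufacturer's standard protocol, which primes cDNA at poly(A) tails. Plastid RNA carries such tails mainly while being degraded, so signals of plastid genes need not follow the total amount of their RNA. Replicate arrays of a group correlated between 0.938 and 0.949 over all genes. Of 6 meristem markers CLV3 and KNAT1 could be named here, of 5 floral organ markers PI, of 5 leaf markers RCA, and of 3 root markers none. CLV3, a gene activated by WUS, gave 738, 1043 and 954 units on the Dex arrays, against 53.1, 126 and 78.4 units on the mock arrays, and these ranges did not overlap. KNAT1, a homeobox gene of the meristem, gave 915, 865 and 729 units on the Dex arrays, against 3320, 2648 and 2612 units on the mock arrays. It was called lower with Dex (-1.77 ± 0.21, limma adjusted p = 0.0024). The study names KNAT1 among the genes repressed by WUS, so both meristem markers respond to WUS. Neither therefore gauges the amount of meristem tissue between Dex and mock SAMs. The study describes the treatments with cycloheximide as independent of those with Dex alone and mock. Whether plants of the 4 treatments were grown and hybridised together is not given in the sources used here, and if they were not, cycloheximide and experiment cannot be told apart in any difference between arrays with and without it. Within groups the plastid genes moved as a block on some arrays. Dex replicate 2 held the highest of the 3 Dex values for 58 of the 72 genes, against 31.8% of all genes. Mock replicate 3 held the highest mock value for 40, against 28.4% of all genes. Dex+Cyc replicate 2 held the lowest value of its group for 50 of the 72, mock replicate 2 for 47 and Dex replicate 3 for 42. The share of all genes at their lowest value on these arrays was not computed.

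The summed signal of plastid transcripts was lower wherever cycloheximide was present. The 72 genes together took 0.922%, 0.800% and 0.986% of the summed signal on the Dex+Cyc arrays, against 1.27%, 1.48% and 1.23% on the Dex arrays. They took 0.844%, 0.835% and 0.785% on the Cyc arrays, against 1.24%, 1.197% and 1.27% on the mock arrays. Every array with cycloheximide was below every array without it. The 27 genes of the mitochondrial genome that were measured took 0.0157% to 0.0213% in Dex+Cyc, against 0.0268% to 0.0278% in Dex, and 0.0159% to 0.0195% in Cyc, against 0.0199% to 0.0283% in mock. In whole SAMs, fewer plastids, less RNA in each plastid and a change in the poly(A) tails of plastid RNA cannot be told apart. The shares also depend on the signals of all other genes.

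**Figure D1:**
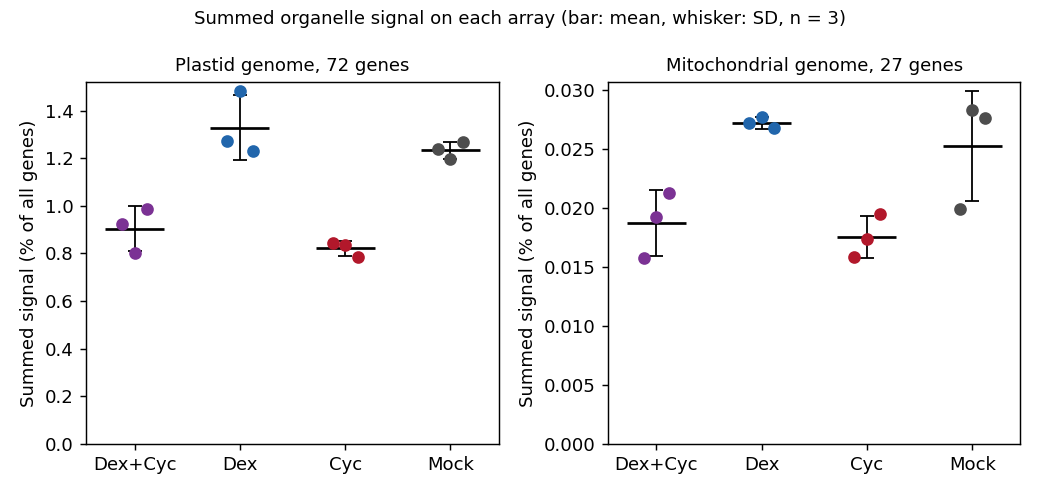
Summed signal of the plastid genes (left) and of the mitochondrial genes (right) on each array, as a percent of the summed signal of all genes (vertical axes), for the 4 treatments (horizontal axes). Points are arrays, bars means and whiskers SD (n = 3). The 6 arrays with cycloheximide lie between 0.785% and 0.986% for the plastid genes, and the 6 arrays without it between 1.197% and 1.48%.

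The comparison of Cyc with mock SAMs asked how plastid transcripts differed after 4 h of cycloheximide without Dex. Between Cyc and mock SAMs, 70 of the 72 genes had a negative log2 difference, against 58.9% of all genes. The median of the 72 was -0.84, a fold of 0.56, beside -0.18 over all genes. In limma fitted across all genes, 14 plastid genes were called lower (adjusted p under 0.01 and at least 2-fold) and none higher, against 7.32% of all genes called lower and 8.3% called higher. At an adjusted p under 0.05 with no fold threshold, 41 were lower and none higher, against 26.4% and 14.6% of all genes. For 55 of the 72, all 3 Cyc arrays lay below all 3 mock arrays, against 31.9% of all genes, and for none did they lie above, against 18.2%. The count called depended on single arrays. It was 9 without mock replicate 1, 5 without mock replicate 3, 7 without Cyc replicate 2 and 5 without Cyc replicate 3. The share of all genes called was not computed for these fits, and was 7.32% lower with all arrays. At an adjusted p under 0.05, 29 to 40 of the 72 plastid genes were lower with 1 array left out, against 22.6% to 25% of all genes. The median stayed between -0.97 and -0.72 with any 1 array left out.

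Rubisco, the enzyme that fixes carbon dioxide, has its large subunit encoded by rbcL, one of the genes called. Its signal was 125, 132 and 145 in Cyc SAMs, against 355, 256 and 399 in mock SAMs. The ranges were well apart, and the log2 difference was -1.30 ± 0.19 (SE, n = 3 arrays a group; limma adjusted p = 4.9e-04). In photosystem II, psbC, which encodes the inner antenna protein CP43, gave 401, 386 and 325 in Cyc SAMs, against 920, 774 and 887 in mock SAMs. The groups did not overlap, and its log2 difference was -1.22 ± 0.17, with the smallest p among the 14 genes called (limma adjusted p = 3.2e-04). psbZ, a small subunit of the same photosystem, gave 1258, 898 and 995 in Cyc SAMs, against 2503, 1886 and 2733 in mock SAMs, without overlap (-1.17 ± 0.20, limma adjusted p = 0.0011).

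Genes for plastid gene expression were also among those called. rps16, for a protein of the small ribosomal subunit, gave 66.7, 66.1 and 64.6 in Cyc SAMs, against 232, 126 and 240 in mock SAMs. The Cyc values of rps16 were nearly equal and all below the mock ones, with a log2 difference of -1.54 ± 0.30 (limma adjusted p = 0.0025). rps12, whose transcript is joined from separately transcribed pieces, gave 79.3, 61.4 and 69.3 in Cyc SAMs, against 121, 145 and 173 in mock SAMs (-1.05 ± 0.18, limma adjusted p = 0.0014). matK, which encodes a maturase needed to splice several plastid introns, gave 3868, 3046 and 3222 in Cyc SAMs, against 6444, 7042 and 7619 in mock SAMs. Its groups did not overlap, and the log2 difference was -1.06 ± 0.17 (limma adjusted p = 7.7e-04). accD, for a subunit of the acetyl-CoA carboxylase of fatty acid synthesis, differed by -1.09 ± 0.18 and ndhA, for a membrane subunit of the NDH complex, by -1.12 ± 0.22 (limma adjusted p = 0.0010 and 0.0029). Under the alternative settings of the closing observations, rps16 and ndhA each lost the call in 4 of 16 and rps12 in 4 of 15. accD lost it in 2 of 16 and matK in 1 of 16. The other genes called included psaB, psbK, rps2, rpl14 and rpl16, listed here after their values were seen, with log2 differences of -1.03 to -1.29.

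**Figure D2:**
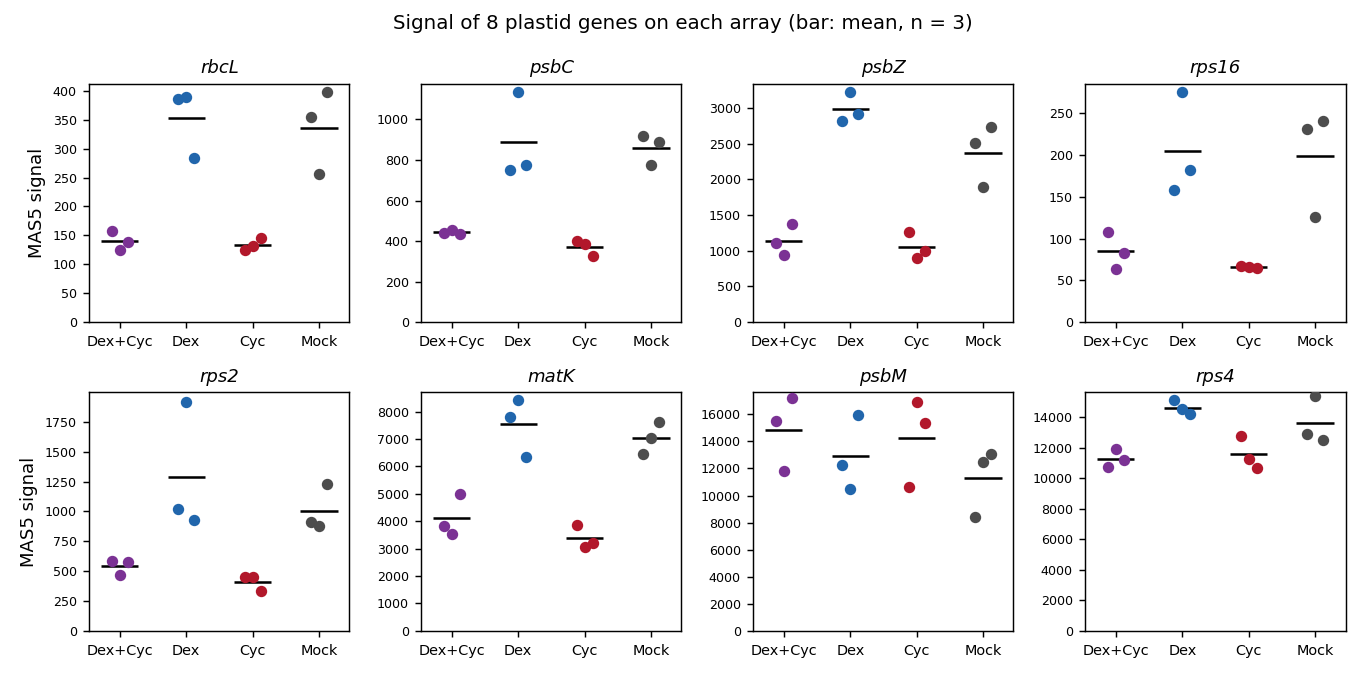
MAS5 signal (vertical axes, from 0) of 8 plastid genes on the arrays of the 4 treatments (horizontal axes), with points for arrays and bars for means (n = 3). For rbcL, psbC, psbZ, rps16, rps2 and matK every value with cycloheximide lies below every value without it, whereas the values of psbM overlap between all 4 treatments and those of rps4 between Cyc and mock.

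The comparison of Dex+Cyc with Dex SAMs asked the same question in SAMs that also received Dex, with means from other arrays. The spread of each gene was estimated once from all 12 arrays, so p-values and calls of both comparisons are not independent. Between Dex+Cyc and Dex SAMs, 69 of the 72 genes had a negative difference, against 57% of all genes, and their median was -0.77, a fold of 0.59, beside -0.15 over all genes. In limma, 4 genes were called lower and none higher, against 5.63% of all genes called lower and 8.51% called higher, so at that threshold the share of plastid genes called lower, 5.56%, was near that of all genes. The count depended on the scaling, with 8 plastid genes (11.1%) called lower under quantile normalization, against 6.46% of all genes, and 9 (12.5%) under median centring, against 7.73%. At an adjusted p under 0.05, 40 were lower and none higher, against 24.7% and 15.1% of all genes, and for 56 of the 72 all 3 Dex+Cyc arrays lay below all 3 Dex arrays, against 32.4% of all genes. Without Dex replicate 2, the array on which most plastid genes were highest, 2 genes were called and the median was -0.57. At an adjusted p under 0.05, 21 of the 72 genes were then lower, against 20.9% of all genes. Without Dex+Cyc replicate 2 the count called was 2 and the median -0.62. At that adjusted p, 23 of the 72 genes were lower, against 21% of all genes.

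The 4 genes called in Dex+Cyc against Dex, psbZ, rbcL, rps2 and rps16, were all among the 14 called in Cyc against mock. psbZ gave 1104, 934 and 1380 in Dex+Cyc SAMs, against 2816, 3224 and 2910 in Dex SAMs. The highest Dex+Cyc value of psbZ was below the lowest Dex value, and its log2 difference was -1.41 ± 0.20 (limma adjusted p = 4.0e-04). rbcL gave 158, 125 and 139 in Dex+Cyc SAMs, against 386, 390 and 285 in Dex SAMs, again without overlap (-1.32 ± 0.19, limma adjusted p = 4.9e-04). rps2, for a protein of the small ribosomal subunit at the start of the ATP synthase gene cluster, gave 585, 468 and 576 in Dex+Cyc SAMs, against 1017, 1917 and 931 in Dex SAMs (-1.18 ± 0.27, limma adjusted p = 0.0073), and the high value is that of Dex replicate 2. rps16 differed by -1.26 ± 0.30 (limma adjusted p = 0.0078). Without Dex replicate 2 the limma adjusted p was 0.013 for rps2 and 0.030 for rps16. In all, rps2 and rps16 each lost the call in 7 of 16 alternatives, while rbcL and psbZ kept their calls in each of the 16.

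Side by side, 68 of the 72 genes had a negative difference in both comparisons, against 47.5% of all genes, and 32 were lower at an adjusted p under 0.05 in both, against 20.5%. For 46 genes the arrays with cycloheximide lay below those without it in both, against 25% of all genes. The log2 differences of a gene in both comparisons lay less than 0.5 apart for 61 genes, with a median gap of 0.19, and correlated at 0.58 (Pearson) and 0.63 (Spearman) across the 72 genes, which share their arrays and are no independent replicates.

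**Figure D3:**
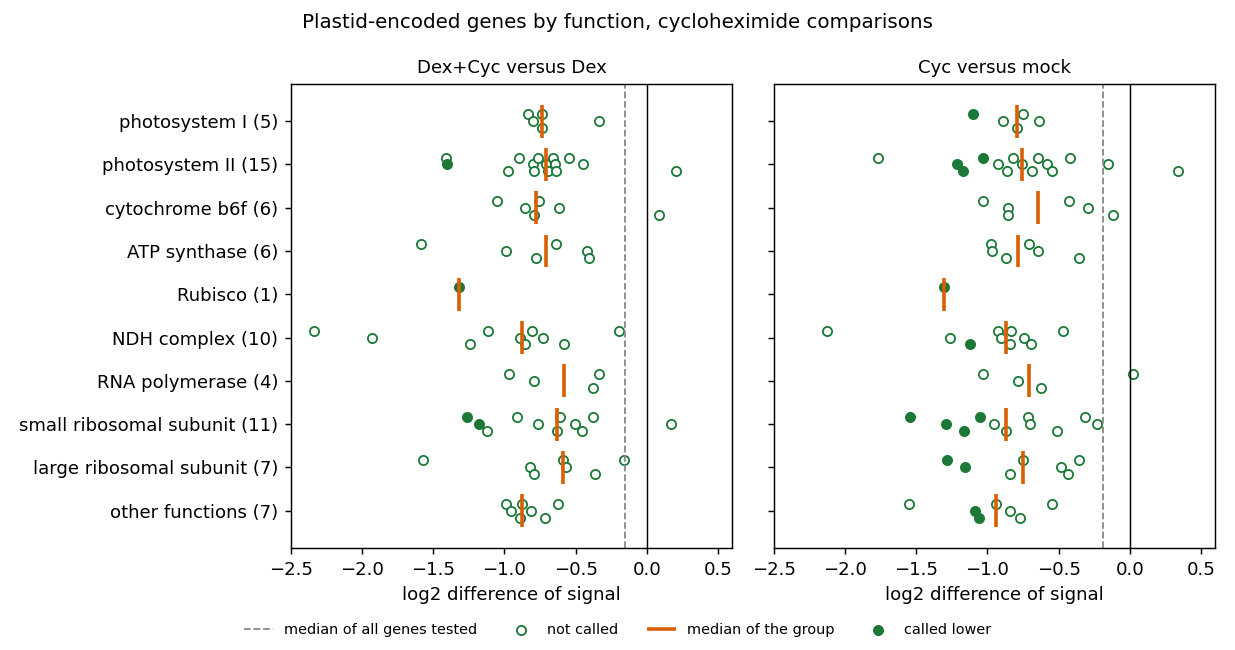
Log2 difference of signal (horizontal axes) of each plastid gene in Dex+Cyc versus Dex (left) and Cyc versus mock (right), by function (vertical axis, number of genes in parentheses). Filled points passed an adjusted p under 0.01 and a 2-fold difference, orange lines are medians of the functions and the dashed line is the median of all genes. The median of each function lies left of the dashed line on both sides.

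The lower signals were spread over the functions of the plastid genome. In Cyc against mock the medians of the functions with more than 1 gene ran from -0.94 for other functions to -0.64 for the cytochrome b6f complex, and in Dex+Cyc against Dex from -0.88 for other functions to -0.58 for the RNA polymerase. The 43 genes of photosynthesis had a median of -0.83 in Cyc against mock and -0.78 in Dex+Cyc against Dex. The 22 genes of transcription and translation had medians of -0.77 and -0.62 in these comparisons. At an adjusted p under 0.05, 22 of the 43 were lower in each comparison, as were 15 and 14 of the 22. Of all genes, 26.4% and 24.7% were lower at that adjusted p.

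The gene with the highest mean signal in each function is described next. psaJ, for a small subunit of photosystem I, differed by -0.64 ± 0.13 in Cyc against mock and by -0.73 ± 0.13 in Dex+Cyc against Dex (limma adjusted p = 0.0039 and 0.0019). petB, for cytochrome b6, differed by -0.43 ± 0.16 and -0.62 ± 0.16 (limma adjusted p = 0.056 and 0.012), and atpB, for the catalytic subunit of the ATP synthase, by -0.65 ± 0.21 and -0.42 ± 0.21 (limma adjusted p = 0.030 and 0.14). These genes thus had the same sign in both comparisons, with differences under 2-fold. ndhI, for a subunit of the NDH complex, which cycles electrons around photosystem I, differed by -0.74 ± 0.19 and -0.81 ± 0.19 (limma adjusted p = 0.012 and 0.0083). rpoA, for the alpha subunit of the plastid RNA polymerase, differed by -0.63 ± 0.27 and -0.34 ± 0.27 and did not pass in either comparison (limma adjusted p = 0.091 and 0.37). In the ribosome, rpl33 differed by -0.36 ± 0.14 and -0.56 ± 0.14 and rps4 by -0.23 ± 0.11 and -0.37 ± 0.11 (limma adjusted p = 0.064 and 0.0087 for rpl33, 0.14 and 0.024 for rps4).

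psbM, for another small subunit of photosystem II, did not share the direction. It gave 15477, 11846 and 17181 in Dex+Cyc SAMs, against 12288, 10517 and 15938 in Dex SAMs, and 10613, 16882 and 15362 in Cyc SAMs, against 8411, 12440 and 13034 in mock SAMs. The groups overlapped, and the log2 differences were 0.20 ± 0.25 and 0.34 ± 0.25 (limma adjusted p = 0.58 and 0.34). The 95% interval in Cyc against mock, -0.23 to 0.91, does not reach the median of the 72 genes. rpoB, for the beta subunit of the RNA polymerase, was named after its values were seen. It differed by 0.02 ± 0.29 in Cyc against mock and by -0.38 ± 0.29 in Dex+Cyc against Dex, whereas its cluster neighbours rpoC1 and rpoC2 differed by -0.79 ± 0.15 and -1.03 ± 0.26 in Cyc against mock (limma adjusted p = 0.96 for rpoB, 0.0024 for rpoC1 and 0.011 for rpoC2). The signal of rpoB was dim, between 38.2 and 82.7 on the 12 arrays. In all, 23 of the 72 genes reached an adjusted p under 0.05 in neither comparison. The share of all genes that did so was not computed. Among the 23 were ndhF, psbN and rps14, whose signals were as low as 0.8, 3.8 and 6.4.

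Brightness bore on precision. The 24 brightest genes had a median SD of 0.21 between replicate arrays (log2), the 24 in the middle 0.35 and the 24 dimmest 0.50. The median difference in Cyc against mock was -0.64 in the brightest, -0.92 in the middle and -0.82 in the dimmest, and in Dex+Cyc against Dex -0.61, -0.79 and -0.93. All 3 classes of brightness therefore lay below the median of all genes, and the brightest genes had the smallest differences.

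**Figure D4:**
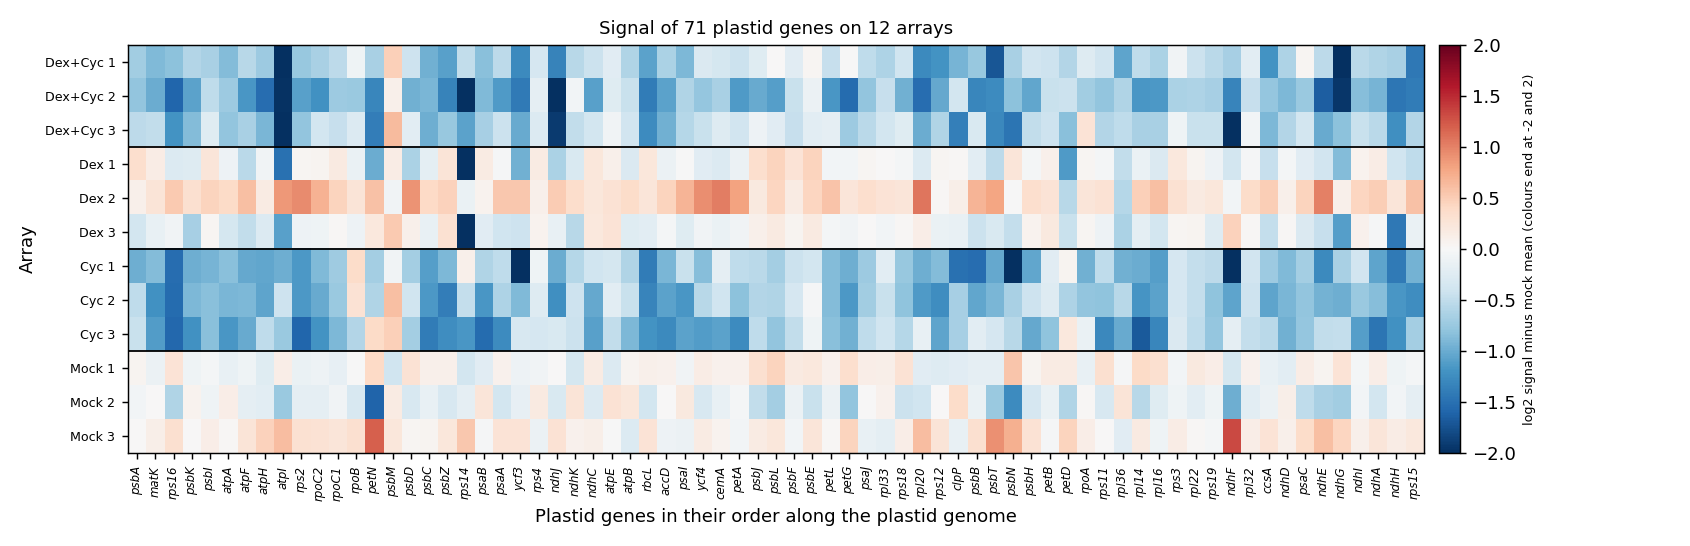
Log2 signal minus the mean of the mock arrays (colour, ending at -2 and 2) of 71 plastid genes in their order along the plastid genome (horizontal axis) on the 12 arrays (vertical axis, grouped by treatment). The 6 rows with cycloheximide are mostly blue, and the row of Dex replicate 2 is mostly red, with 58 of all 72 genes at their highest Dex value.

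Pairs of genes from 1 cluster correlated more closely in the median than other pairs, but not in every cluster, and the difference was not tested. After the mean of each treatment was removed, pairs of genes from 1 cluster had a median correlation of 0.52 over the 12 arrays (116 pairs), all other pairs of plastid genes 0.36 (2440 pairs), and pairs of 1 function but not of 1 cluster 0.31 (236 pairs). All pairs share the arrays and their scaling. Among the closest were psbJ and psbL (0.95), neighbours in the psbE cluster of photosystem II. The closest pair, psaC and rps16 (0.97), does not lie in 1 cluster. In the cluster of psaI, ycf4, cemA and petA the correlations ran from 0.36 to 0.93, and in that of ndhJ, ndhK and ndhC from -0.52 to 0.55. The median within a cluster was 0.275 for psbB, psbT, psbH, petB and petD, -0.095 for clpP, rps12 and rpl20, and -0.197 for ndhJ, ndhK and ndhC, all below that of the other pairs.

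The comparisons of SAMs with and without Dex, which ask for the response to WUS, gave no call among the plastid genes. Between Dex and mock SAMs their median difference was 0.06, beside -0.01 over all genes. In limma 0 of the 72 were called, against 1.18% of all genes, 0 passed an adjusted p under 0.05, against 5.28%, and 1 had an unadjusted p under 0.05, against 19.3%. Between Dex+Cyc and Cyc SAMs the median was 0.15, beside 0.03, and 0 of the 72 were called or passed an adjusted p under 0.05, against 0.106% and 1.58% of all genes, with 4 at an unadjusted p under 0.05, against 13.8%. The 95% interval lay within 2-fold in both directions for 58 genes in Dex against mock and for 51 in Dex+Cyc against Cyc, and for these genes it leaves out a 2-fold difference either way. The sign of the median in Dex against mock turned without Dex replicate 2 (-0.07) and without mock replicate 2 (-0.03).

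Among the 4 genes with the smallest p in Dex against mock, rpl36, for a small protein of the large ribosomal subunit, gave 2054, 1954 and 1855 in Dex SAMs, against 2829, 3466 and 2460 in mock SAMs. These ranges did not overlap, as those of 12.9% of all genes in this direction, and the log2 difference was -0.57 ± 0.19 (limma adjusted p = 0.13). petD, for subunit IV of the cytochrome b6f complex, differed by -0.71 ± 0.32, rps14 by -1.88 ± 0.92 and psbE, for a subunit of cytochrome b559, by 0.35 ± 0.19 (limma adjusted p = 0.26, 0.31 and 0.38). In Dex+Cyc against Cyc, psbI, for a small subunit of photosystem II, gave 1629, 1802 and 2172 in Dex+Cyc SAMs, against 1345, 1434 and 1432 in Cyc SAMs. The ranges were apart, as for 11.5% of all genes in this direction, with a log2 difference of 0.40 ± 0.14 (limma adjusted p = 0.23). atpI, ndhJ and ndhG were dim and differed by -1.45 ± 0.56, -1.59 ± 0.62 and -1.16 ± 0.52 (limma adjusted p = 0.29, 0.29 and 0.36). The difference between the Dex effects with and without cycloheximide was called for none of the 72, against 0.00885% of all genes, and 1 gene, rpl36, had an unadjusted p under 0.05, against 8.25% (0.68 ± 0.27, limma adjusted p = 0.56). ndhJ, rpl20 and ndhH followed, with differences of -1.50 ± 0.87, -0.82 ± 0.58 and 0.68 ± 0.52 (limma adjusted p = 0.72, 0.78 and 0.81).

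Nuclear genes whose products work beside the plastid-encoded ones could be named in part. Of 49 listed nuclear genes of photosynthesis, 10 were measured under a name, and of 34 nuclear genes for plastid ribosomal proteins, 13. In Cyc against mock their medians were -0.70 and -0.79, beside -0.18 over all genes. There 1 and 4 genes were called lower and none higher, against 7.32% and 8.3% of all genes. At an adjusted p under 0.05, 8 and 11 were lower, against 26.4% of all genes. In Dex+Cyc against Dex the medians were -0.85 and -0.87, beside -0.15 over all genes. There 3 and 2 genes were called lower and none higher, against 5.63% and 8.51% of all genes. At an adjusted p under 0.05, 9 and 12 were lower, against 24.7% of all genes. PETE1, for the electron carrier plastocyanin, was called in Cyc against mock (-1.19 ± 0.17), and PSAE1, PSAN and PSBO2, for subunits of the photosystems, in Dex+Cyc against Dex (-1.0964 ± 0.18, -1.09 ± 0.20 and -1.25 ± 0.24). RPL29 and RPL19A were called in both (-1.57 ± 0.13 and -1.25 ± 0.20 in Cyc against mock, -1.56 ± 0.13 and -1.29 ± 0.20 in Dex+Cyc against Dex), and RPL9 and RPL10 in Cyc against mock (-1.0035 ± 0.14 and -1.02 ± 0.19). NDHL, 1 of 2 measured of the 4 listed nuclear subunits of the NDH complex, was called lower in Cyc against mock (-1.39 ± 0.32).

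Of 21 nuclear genes for plastid transcription only RPOTMP, for a phage-type RNA polymerase sent to mitochondria and plastids, was measured under a name, and of 8 for plastid RNA turnover and signalling none. RPOTMP gave 252, 249 and 242 in Dex+Cyc SAMs, against 171, 131 and 124 in Dex SAMs, and 253, 299 and 302 in Cyc SAMs, against 197, 186 and 160 in mock SAMs. It was higher in both without overlap, by 0.82 ± 0.14 and 0.65 ± 0.14 (limma adjusted p = 0.0016 and 0.0051), under the 2-fold threshold. At an adjusted p under 0.05, 15.1% and 14.6% of all genes were also higher in these comparisons. The sign for RPOTMP was thus opposite to that of the median of the plastid genes.

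With Dex the nuclear genes of photosynthesis and the plastid genome differed in their medians, 0.50 over the 10 against 0.06 over the 72 in Dex against mock, and 0.38 against 0.15 in Dex+Cyc against Cyc. None of the 10 was called. In Dex against mock 3 of the 10 were higher at an adjusted p under 0.05, against 2.15% of all genes, LHCB4.2 (1.07 ± 0.21), PSBO2 (1.17 ± 0.24) and PETE1 (1.03 ± 0.17), named after their values were seen, and in Dex+Cyc against Cyc PETE1 alone was, against 0.619% of all genes (1.25 ± 0.17, limma adjusted p = 0.014). The difference between the lists was not tested.

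**Figure D5:**
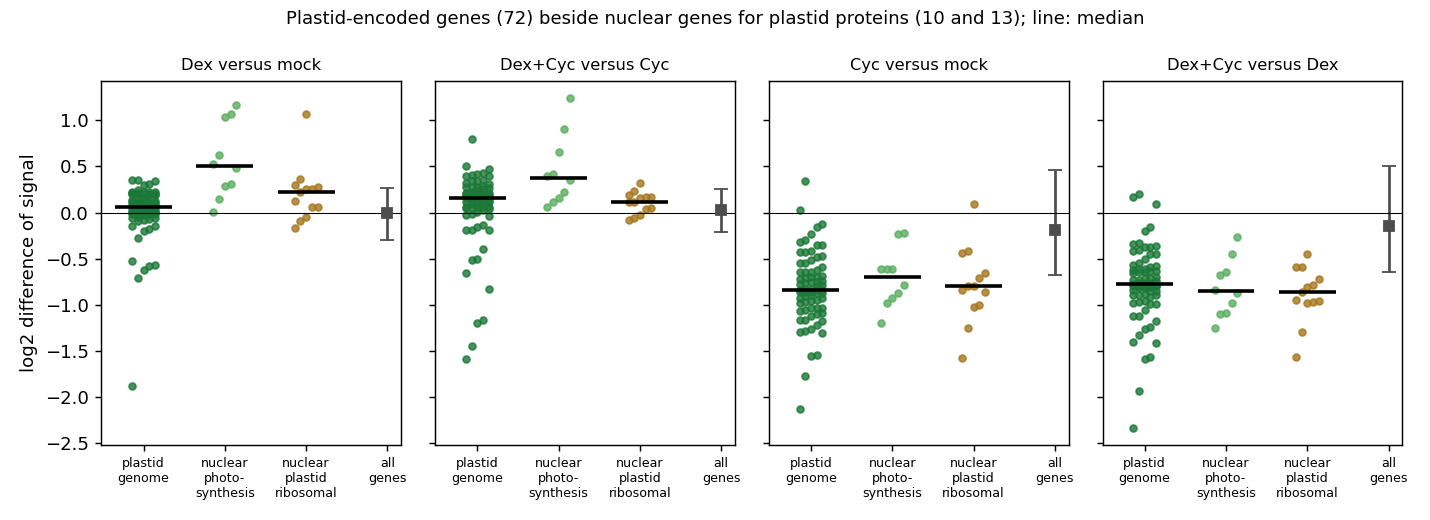
Log2 difference of signal (vertical axis) in the 4 comparisons (panels) for the 72 plastid genes, 10 nuclear genes of photosynthesis and 13 nuclear genes for plastid ribosomal proteins. Points are genes and lines medians, and the square with whiskers gives the median and quartiles of all genes. In the comparisons with cycloheximide the medians of the 3 lists lie between -0.70 and -0.87, and in Dex versus mock they lie at 0.06, 0.50 and 0.22.

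The 27 mitochondrial genes had a median of -0.52 in Cyc against mock and -0.57 in Dex+Cyc against Dex, beside -0.18 and -0.15 over all genes. None was called, against 7.32% and 5.63% of all genes called lower. At an adjusted p under 0.05, 2 and 4 of the 27 were lower, against 26.4% and 24.7% of all genes. The mitochondrial signals were dim, with a median of 28.5 to 58.5 on the arrays. The RNA control ratio of GAPDH, the log2 of its 3′ over its 5′ probe set, moved with cycloheximide, with 0.734 to 1.055 in Dex+Cyc, against 1.056 to 1.35 in Dex, and 0.64 to 0.90 in Cyc, against 1.03 to 1.098 in mock. The same ratios of actin and ubiquitin overlapped between treatments. The control probe set of 25S ribosomal RNA gave 290 to 367 in Dex+Cyc, against 482.5 to 858 in Dex, and 182 to 310 in Cyc, against 185 to 704 in mock. That of 5S ribosomal RNA gave 59.1 to 100.4 in Dex+Cyc, against 144 to 564.5 in Dex, and 83.7 to 542.5 in Cyc, against 102 to 900 in mock. Both were lower without overlap in Dex+Cyc than in Dex, and both overlapped between Cyc and mock. RCA, the leaf marker measured, gave 1882 to 2240 in Dex+Cyc, against 2560 to 2965 in Dex, and 1664 to 2047 in Cyc, against 2649 to 2867 in mock. PI, the floral marker measured, gave 300.5 to 501 in Dex+Cyc, against 572 to 822 in Dex, and 507 to 637 in Cyc, against 776.5 to 1236 in mock. The meristem marker KNAT1 was also lower with cycloheximide and without overlap, with 353 to 612 in Dex+Cyc, against 729 to 915 in Dex, and 1295 to 1629 in Cyc, against 2612 to 3320 in mock (-0.77 ± 0.21 and -0.95 ± 0.21, limma adjusted p = 0.016 and 0.0053). CLV3, the other meristem marker, differed by -0.74 ± 0.40 in Dex+Cyc against Dex and by 0.21 ± 0.40 in Cyc against mock (limma adjusted p = 0.18 and 0.73). The part of RNA quality or tissue in the plastid differences was not tested.

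Outside the 72, 7 probe sets are paired with both copies of a plastid gene, most of them in the inverted repeat. In Cyc against mock rps12 (another probe set than above), rps7 and ycf1 differed by -0.96 ± 0.23, -0.98 ± 0.24 and -0.82 ± 0.19 (limma adjusted p = 0.0074, 0.0090 and 0.0058), and rpl2, rpl23, ycf2 and ndhB by -0.25 to -0.65. All 7 had a negative difference in both comparisons with cycloheximide, and none was called.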

How the data were processed

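The deposited values were MAS5 signals (intensity, linear), computed by the authors from the scanned arrays with MAS5 and affy, per the labels, each array scaled to a trimmed mean of 500 (checked on all 12). Genome build and tool versions: not given in the sources used here. Groups followed the treatment labels. Of 22810 probe sets, 64 controls were left out, and 14500 of the rest were paired with a locus through the study's supplementary tables or the platform annotation. The probe set with the highest mean was kept for each locus, which left 22599. Of the 72 plastid genes, 69 carried the same symbol in the platform annotation. Gene order came from RefSeq.

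log2 of the signal was fitted with limma 3.58.1 (R 4.3.3) with 4 group means over all 12 arrays, eBayes and Benjamini-Hochberg adjustment over all 22599. Calls needed an adjusted p under 0.01 with a 2-fold or larger difference, the thresholds of the study's methods, which used GCRMA values in place of MAS5 signals. The fit was tested on simulated data. Whether replicates were separate plants is not in the labels, so the spread behind each p-value is that between arrays and may be technical, and the number of arrays limits precision. Genes named were those called in a comparison (the 8 with the smallest p where more were called, the 4 with the smallest p where none was), the gene with the highest mean signal of each function, and called genes of the nuclear lists. Members and lists were chosen with earlier results of these data known. Counts and medians over a list carry no test. One plastid gene that enters them is not reported here. The search for promoter motifs was not run, and no sequence is shown. Figures were drawn with matplotlib in Python. Alternatives are given with the closing observations.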

Additional observations from a re-analysis of the deposited data

How the results depend on the processing

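The count of plastid genes called depended on the settings, and their medians moved by less than the spread between replicates under each alternative. Of 185 alternative values of counts and medians, 169 stayed within 1.5 times the count or within the spread between replicates, and of 668 alternative values of single named genes 628 kept their side of the threshold, 30 lost a call, 10 gained one and none changed sign. In Dex+Cyc against Dex, 4 genes were called, and 8 under quantile normalization, 9 under median centring, 7 with 32 added to the signal, 8 with robust shrinkage and a variance trend, 2 with only the arrays compared and 2 without the 24 dimmest genes (an alternative chosen after seeing the data). In Cyc against mock, 14 were called, and 8 with only the arrays compared. With no fold threshold and an adjusted p under 0.05 the counts were 41 in Cyc against mock and 40 in Dex+Cyc against Dex. All of these were lower, against 26.4% and 24.7% of all genes. Leaving out each array in turn gave 5 to 14 calls in Cyc against mock and 2 to 5 in Dex+Cyc against Dex. The medians were then -0.97 to -0.72 and -0.88 to -0.57. In Dex+Cyc against Dex, 6.46% of all genes were called lower under quantile normalization and 7.73% under median centring. The share of all genes called was not computed with 32 added, with robust shrinkage, with only the arrays compared or with an array left out. These counts therefore do not show a change particular to plastid genes. The cause of these changes in count was not tested. The counts of 0 in the other comparisons stayed 0 under all alternatives.

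Arrays of different treatments with the same replicate number correlated between -0.09 and 0.25 in their deviations, over 0.1 in 3 of 18 pairs. The 3 were Cyc with Dex+Cyc in replicates 1 (0.25) and 2 (0.21), and Dex+Cyc with mock in replicate 2 (0.23). Replicate 3 of Cyc and Dex+Cyc correlated at 0.025. The numbers were not taken as pairing, though arrays of Cyc and Dex+Cyc may share a source of spread. With the replicate block, 2 genes were called in Dex+Cyc against Dex and 10 in Cyc against mock. The share of all genes called was not computed with the block.

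The 95% interval of a plastid gene reached 0.59 to each side in the median (log2), and dim probe sets varied more.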
